A study of Mus musculus with 4 samples.

Results

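Calprotectin, the formyl peptide receptors and other receptors that neutrophils carry were described in the inflamed mouse colon: S100a8, S100a9, Fpr1, Fpr2, Gpr84, Csf3r, Cxcr2, Il1r2, Trem1 and Clec4d. These 10 genes, of 20832 that the arrays name, were found through the transcript accession that each array probe targets. A gene with several probes was to be given by its brightest, but each of the 10 had a single probe. The list was selected on levels of these same arrays, with their differences between pools already known, so the contrast of the pools is given as a description with no test.

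RNA of the entire colon came from wild-type (WT) animals and from animals without the adaptor protein STAP-2 (STAP-2-/-), to ask which transcripts of the colon in experimental colitis differ when STAP-2 is missing. All mice were of the C57BL/6J strain, 14 weeks old, and had drunk 1.75% dextran sulfate sodium (DSS), which injures the colonic epithelium. The sample descriptions state a DSS course of 7 days and the treatment protocol 3 days, and the samples include no untreated colon. Each sample was RNA pooled from 3 mice on a 1-colour Agilent array, with 2 pools per genotype, called WT 1, WT 2, STAP-2-/- 1 and STAP-2-/- 2. Both pools of a genotype are named biological replicates in the titles, the spread within a pool was not measured, and the cells in which Stap2 was deleted are not described in the sources used here.

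Neutrophils are short-lived white blood cells that leave the blood for injured tissue, and their number in the colonic mucosa is used as a sign of active colitis. S100a8 and S100a9 encode the paired calcium-binding proteins of calprotectin, which makes up much of the neutrophil cytosol and is measured in stool as a marker of gut inflammation. Formyl peptide receptors sense peptides that bacteria and damaged mitochondria release. Csf3r answers a growth factor, Cxcr2 chemokines and Clec4d microbial products, while Trem1 amplifies signals from Toll-like receptors and Il1r2 captures interleukin-1. Monocytes and macrophages carry several of these genes as well. In RNA of a whole organ, fewer cells of a type and less RNA per cell cannot be told apart.

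A level here is the log2 of the processed signal minus the 75th percentile of its array, so a level of 0 lies at that percentile, and levels of different probes are not read as relative amounts of their transcripts. The 75th percentile lay between 2134 and 2348 signal units, and between 68.4% and 70.5% of spots were well above background. Stap2, the targeted gene, was at 2.92 and 2.98 on the WT arrays and below that mark on both STAP-2-/- arrays. Over 15145 genes, arrays of 1 pool number differed less (SD of log2 differences 0.317 for number 1 and 0.359 for number 2) than arrays of 1 genotype (0.398 for WT and 0.610 for STAP-2-/-). The pool number also follows the position on the slide, from 1 for WT 1 to 4 for STAP-2-/- 2 with the genotypes alternating, so pool and position cannot be told apart. The labels give the numbers no further meaning.

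The promoters of both calprotectin genes and both formyl peptide receptors are shown because these 4 genes differed most between the pools by rank among the 10, and those of Csf3r and Trem1 because these 2 did not share that pattern. The sequences are the 250 bases before and 50 after each gene's start from RefSeq, build GRCm38.p6, where all 10 genes had an entry. Capitals mark matches, on either strand, to TTNNGNAA (C/EBP type), GAGGAA (PU.1 type, read as ttcctc on the other strand) and TTCNNNGAA (STAT type).
S100a8, chr3:90668821-90669120, plus strand: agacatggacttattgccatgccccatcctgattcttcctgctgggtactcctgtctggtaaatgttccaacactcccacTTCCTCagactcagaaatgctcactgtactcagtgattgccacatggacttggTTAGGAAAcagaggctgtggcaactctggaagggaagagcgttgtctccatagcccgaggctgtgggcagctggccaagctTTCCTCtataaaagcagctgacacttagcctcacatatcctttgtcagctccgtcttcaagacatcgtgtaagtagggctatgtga
S100a9, chr3:90695672-90695971, minus strand: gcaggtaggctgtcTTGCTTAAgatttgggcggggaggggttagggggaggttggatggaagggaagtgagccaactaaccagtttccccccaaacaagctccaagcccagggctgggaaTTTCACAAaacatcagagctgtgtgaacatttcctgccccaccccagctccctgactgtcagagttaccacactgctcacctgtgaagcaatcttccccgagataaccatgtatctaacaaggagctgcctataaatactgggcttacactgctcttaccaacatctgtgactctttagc
Fpr1, chr17:17883890-17884189, minus strand: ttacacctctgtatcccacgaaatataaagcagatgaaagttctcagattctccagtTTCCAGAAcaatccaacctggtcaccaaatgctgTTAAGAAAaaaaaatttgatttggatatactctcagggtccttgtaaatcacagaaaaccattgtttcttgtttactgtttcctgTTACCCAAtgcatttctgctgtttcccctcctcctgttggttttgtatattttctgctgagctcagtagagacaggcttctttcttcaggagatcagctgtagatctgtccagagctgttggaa
Fpr2, chr17:17887574-17887873, plus strand: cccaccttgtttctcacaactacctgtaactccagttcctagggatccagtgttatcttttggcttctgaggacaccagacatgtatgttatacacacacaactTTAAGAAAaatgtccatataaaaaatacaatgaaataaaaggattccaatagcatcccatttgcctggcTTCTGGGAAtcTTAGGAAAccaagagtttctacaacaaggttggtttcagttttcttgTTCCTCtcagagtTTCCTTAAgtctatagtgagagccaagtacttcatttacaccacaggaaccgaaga
Csf3r, chr4:126024409-126024708, plus strand: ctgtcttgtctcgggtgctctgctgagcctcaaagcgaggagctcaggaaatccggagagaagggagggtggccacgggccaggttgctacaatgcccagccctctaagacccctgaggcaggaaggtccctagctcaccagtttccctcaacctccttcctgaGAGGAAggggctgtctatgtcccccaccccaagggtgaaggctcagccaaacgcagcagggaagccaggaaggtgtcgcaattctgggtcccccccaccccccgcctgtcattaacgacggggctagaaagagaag
Trem1, chr17:48232489-48232788, plus strand: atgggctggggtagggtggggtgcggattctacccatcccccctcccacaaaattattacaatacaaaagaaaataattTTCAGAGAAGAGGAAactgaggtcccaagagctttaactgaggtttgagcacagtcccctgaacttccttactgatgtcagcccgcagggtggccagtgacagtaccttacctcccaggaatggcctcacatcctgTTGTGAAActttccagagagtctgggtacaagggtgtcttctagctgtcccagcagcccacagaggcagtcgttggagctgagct

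S100a8 and S100a9 lie on the same chromosome, and so do Fpr1 and Fpr2, each pair on opposite strands. The C/EBP type letters are in 7 of the 10 promoters (S100a8, S100a9, Fpr1, Fpr2, Gpr84, Trem1 and Clec4d) and in 40.7% of all 32851 promoters of that length. In S100a8 the match begins at base -117 from the start and in S100a9 at bases -236 and -130, while Fpr1 and Fpr2 hold 3 matches each. The PU.1 type letters are in 6 of 10 (S100a8, Fpr2, Csf3r, Cxcr2, Trem1 and Clec4d) against 28.3% of all. The STAT type letters, of interest because STAP-2 binds STAT3, are in Fpr2, Il1r2 and Trem1, 3 of 10 against 8.3% of all. In Trem1 the STAT type match runs directly into the PU.1 type match. A match is a description of the letters, and no binding was measured.

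The clearest pattern of the 10 genes was that pool 2 lay above pool 1 in both genotypes. Of the 9 genes tested, 7 were at least 2-fold higher in pool 2 with no overlap between the pools (S100a8, S100a9, Fpr1, Fpr2, Gpr84, Il1r2 and Clec4d) by the mean of the genotypes, a pattern that 2.15% of all 15551 genes with a value on every array showed. Without the 2-fold limit, 9 of 9 had no overlap between the pools, against 62.4% of all genes, 26.4% being higher in pool 2 and 36.0% lower. Taken by genotype, 7 of the 9 were at least 2-fold higher in WT 2 than in WT 1 (1.95% of all genes), and 6 of the 9, all of these but Il1r2, in STAP-2-/- 2 than in STAP-2-/- 1 (3.98% of all genes). The median difference of the 9 genes was 2.35 between the WT pools, against -0.042 for all genes, and 2.04 between the STAP-2-/- pools, against -0.039. The SD of that difference over all genes was 0.42 in WT and 0.66 in STAP-2-/-.

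**Figure D1:**
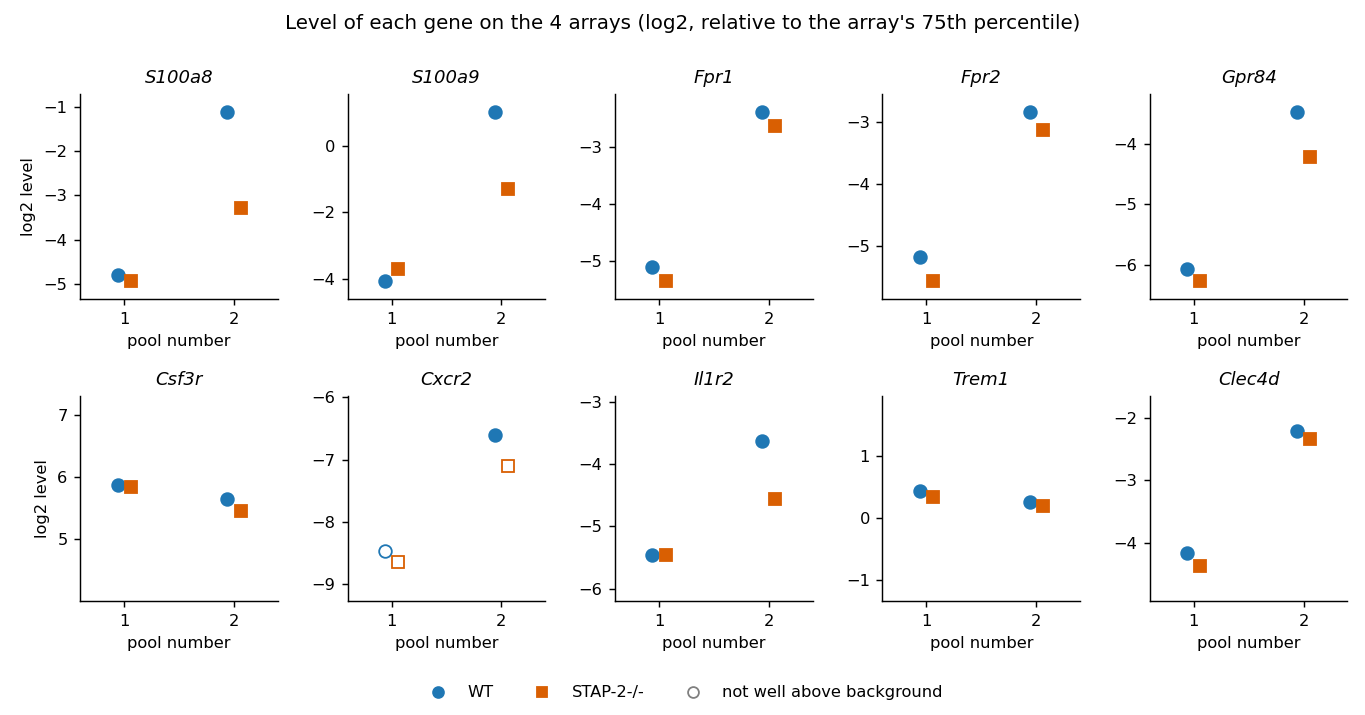
Level of each of the 10 genes on every array (log2 relative to the array's 75th percentile, vertical axis, own range per panel) by pool number, with WT as circles and STAP-2-/- as squares. Open symbols are not well above background, as for Cxcr2 on all arrays but WT 2, and 7 filled panels sit higher at pool 2 while Csf3r and Trem1 do not.

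Calprotectin showed the widest span. S100a9 was at -4.08 in WT 1, 1.02 in WT 2, -3.71 in STAP-2-/- 1 and -1.30 in STAP-2-/- 2, from processed signals of 126, 4484, 174 and 953. Both pool 1 arrays were low and close together, WT 2 was far above all others, and STAP-2-/- 2 lay between. WT 2 was 34.3-fold above WT 1, the highest ratio of all 15551 genes, and STAP-2-/- 2 was 5.31-fold above STAP-2-/- 1, rank 35.

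S100a8, whose protein pairs with that of S100a9, was at -4.80 in WT 1, -1.11 in WT 2, -4.95 in STAP-2-/- 1 and -3.29 in STAP-2-/- 2. The order of the pools was that of S100a9, except that WT 1 was the higher of the low arrays. WT 2 exceeded WT 1 by 12.8-fold, rank 2 of all genes, and STAP-2-/- 2 exceeded STAP-2-/- 1 by 3.15-fold, rank 150. Over 13 other S100 genes tested, the median difference between pools was 0.011 in WT and -0.045 in STAP-2-/-. With no overlap, 3 were higher in pool 2 and 4 lower, where all genes gave 26.4% and 36.0%. S100a11 (0.76 in WT and 1.16 in STAP-2-/-) and S100a10 (0.44 and 0.70) were among the higher and S100a6 (-0.17 and -0.39) and S100a16 (-0.35 and -0.79) among the lower. S100g, a calcium-binding gene of the epithelium, was the 1 of 13 at least 2-fold higher in pool 2 with no overlap by the mean of the genotypes (1.63 in WT and 0.44 in STAP-2-/-).

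Both formyl peptide receptors gave nearly the same difference between pools in each genotype. Fpr1, the high-affinity receptor for bacterial formyl peptides, was at -5.10 in WT 1, -2.37 in WT 2, -5.36 in STAP-2-/- 1 and -2.61 in STAP-2-/- 2. Both pool 2 arrays were high and both pool 1 arrays low, with the genotypes side by side. The ratio of pool 2 to pool 1 was 6.64-fold in WT and 6.70-fold in STAP-2-/-.

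Fpr2, which also binds host peptides and lipids, was at -5.18 in WT 1, -2.83 in WT 2, -5.58 in STAP-2-/- 1 and -3.13 in STAP-2-/- 2. It repeated the order of Fpr1 on all 4 arrays, with ratios of 5.10-fold in WT and 5.46-fold in STAP-2-/-. Of 5 further genes of the formyl peptide receptor family, Fpr3, Fpr-rs3 and Fpr-rs4 were not well above background on any array, Fpr-rs6 was so on STAP-2-/- 2 alone, and Fpr-rs7 had no named probe. Fpr1 and Fpr2 were thus the members of that family that could be compared.

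Gpr84, a receptor for medium-chain fatty acids that myeloid cells induce in inflammation, was at -6.08 in WT 1, -3.46 in WT 2, -6.28 in STAP-2-/- 1 and -4.21 in STAP-2-/- 2. Pool 2 was 6.13-fold above pool 1 in WT and 4.20-fold in STAP-2-/-. The low arrays were close to the lowest level that counted as well above background there (-6.19 on WT 1 and -6.38 on STAP-2-/- 1), and with normexp background correction the mean difference of both genotypes was 1.25 in place of 2.34 (log2).

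Clec4d, a C-type lectin that binds mycobacterial glycolipids, was at -4.17 in WT 1, -2.20 in WT 2, -4.37 in STAP-2-/- 1 and -2.33 in STAP-2-/- 2. As for the formyl peptide receptors, the genotypes lay side by side in each pool, with ratios of 3.92-fold in WT and 4.10-fold in STAP-2-/-. Clec4e, its partner lectin, was well above background in pool 2 alone, at -3.28 in WT 2 and -4.89 in STAP-2-/- 2. Pool 2 was at least 7.52-fold above pool 1 for Clec4e in WT and at least 2.82-fold in STAP-2-/-. These approximate bounds place each pool 1 array no lower than the dimmest probe counted as well above background there. The shared signalling chain Fcer1g differed by 0.38 and 0.99 (log2, WT and STAP-2-/-), the kinase Syk by -0.34 and -0.42, and the adaptor Card9 was well above background on WT 1 alone.

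Il1r2, the decoy receptor that binds interleukin-1 without signalling, was at -5.46 in WT 1, -3.63 in WT 2, -5.47 in STAP-2-/- 1 and -4.56 in STAP-2-/- 2. The pool 1 arrays were level, and STAP-2-/- 2 lay between them and WT 2. The ratios of pool 2 to pool 1 were 3.55-fold in WT and 1.87-fold in STAP-2-/-. Il1r1, the signalling receptor for the same ligands, differed by 0.88 and 0.96 (log2, WT and STAP-2-/-), while its accessory chain Il1rap (0.034 and 0.098) and the antagonist Il1rn (-0.12 and 0.23) lay within the SD of all genes.

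Cxcr2, which draws neutrophils along CXC chemokine gradients, was at -6.60 in WT 2 and not well above background on the other 3 arrays. It was therefore not tested, and no ratio of its pools is given. Its level on WT 2 lay at the lowest that counted as well above background there (-6.61), so no ratio of WT 2 to STAP-2-/- 2 is given either. Cxcr1, a related receptor, was well above background on WT 1 alone.

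Csf3r and Trem1 did not share the pattern. Csf3r, the receptor for granulocyte colony-stimulating factor, was at 5.86 in WT 1, 5.64 in WT 2, 5.83 in STAP-2-/- 1 and 5.44 in STAP-2-/- 2. Its single probe had processed signals from 102145 to 129599, nearly as bright as the probe of the smooth muscle gene Acta2 (127123 to 143701). Whether this probe reports Csf3r alone was not tested, so its flat profile is that of the probe. Trem1, which amplifies signals from Toll-like receptors, was at 0.44 in WT 1, 0.26 in WT 2, 0.34 in STAP-2-/- 1 and 0.20 in STAP-2-/- 2. Both were slightly lower in pool 2 with no overlap, as 36.0% of all genes were, by 0.22 and 0.39 for Csf3r and by 0.17 and 0.14 for Trem1 (log2, WT and STAP-2-/-). Their SD within a genotype was 0.16 and 0.27 for Csf3r and 0.12 and 0.099 for Trem1 (WT and STAP-2-/-, n = 2), against 3.61 and 1.70 for S100a9. Tyrobp, the chain through which Trem1 signals, differed by 0.29 and 0.46, the pathway receptor Tlr4 by 0.19 and 0.39, and the Trem1 ligand Pglyrp1 by -0.15 and 0.40.

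**Figure D2:**
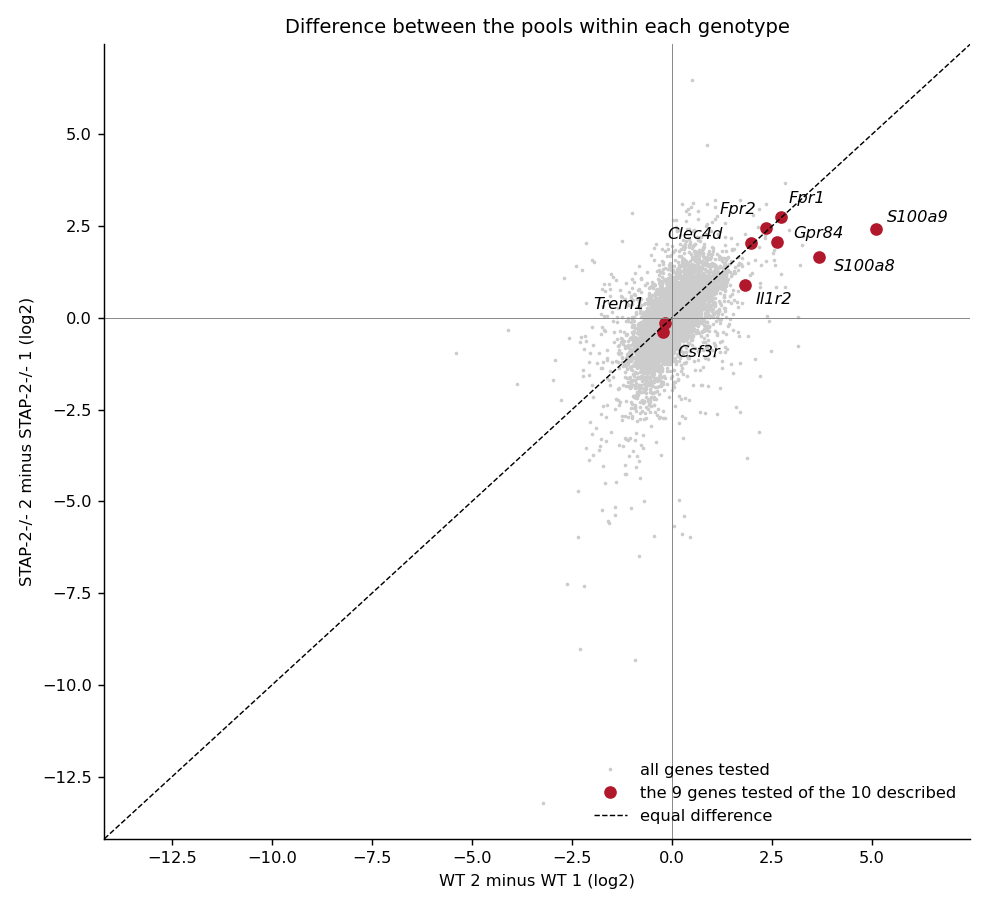
Difference of pool 2 minus pool 1 (log2) in WT (horizontal axis) against that in STAP-2-/- (vertical axis) for 15551 genes (grey) and for 9 of the 10 genes (red), with a dashed line of equal difference. Fpr1, Fpr2 and Clec4d lie on the line, S100a9, S100a8, Gpr84 and Il1r2 lie on its WT side, and Csf3r and Trem1 lie near 0.

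The genes thus fell into 3 forms over the 4 arrays, as a description with no test. For Fpr1, Fpr2 and Clec4d the difference between pools was the same in both genotypes to within 0.10 on the log2 scale. For S100a8, S100a9, Gpr84 and Il1r2 it was wider in WT, by 2.02, 2.69, 0.55 and 0.92. Csf3r and Trem1 formed the third. The 6 genes outside the list whose centred profile over the 4 arrays was nearest to the mean profile of the 9 genes were Timp1, Slc13a3, Tff2, Ereg, Il11 and Il1b, all well above background on every array. The root mean square difference from that mean ran from 0.11 for Timp1, an inhibitor of matrix metalloproteinases, to 0.20 for Il1b. Timp1 was at -1.81 in WT 1, 0.41 in WT 2, -2.08 in STAP-2-/- 1 and -0.63 in STAP-2-/- 2. The members themselves lay between 0.24 (Gpr84) and 1.11 (Csf3r) from their mean.

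No genotype difference was called for any of the 9 genes. By limma with Benjamini-Hochberg adjustment, 0 of 15561 genes passed an adjusted p of 0.05 (0.0% of all), and 325 genes (2.09%) had an unadjusted p under 0.05, with none of the 9 among them. Stap2, the deleted gene, did not pass either, with a limma adjusted p of 0.314 in the same fit. Its level was at least 721-fold lower in STAP-2-/-, an approximate bound. The adjusted test thus missed the deletion itself, so a gene that it did not call may still differ between the genotypes. None of the 9 had non-overlapping genotypes, but this was fixed in advance and is no separate result. All 9 had no overlap between the pools, and such a gene cannot also have non-overlapping genotypes on these arrays. Of all genes, 13.3% were lower and 11.5% higher in STAP-2-/- with no overlap. For S100a8 the mean level was -2.96 ± 2.60 in WT and -4.12 ± 1.17 in STAP-2-/- (SD, n = 2), a difference of -1.16 with a 95% interval from -5.24 to 2.91. For S100a9 the difference was -0.97, from -6.66 to 4.72. For Fpr1 it was -0.25, from -4.16 to 3.66, and for Fpr2 -0.35, from -3.78 to 3.09. The adjusted p of each of the 9 by limma was 1.0. The intervals of Csf3r (-0.69 to 0.45) and Trem1 (-0.50 to 0.34) were the narrowest, and in this fit those of the other 7 allow differences of more than 2-fold in either direction.

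Within the pools the picture differed by gene. In pool 1, no gene of the 9 was 2-fold lower in STAP-2-/-, as 1.06% of all genes were, and the median of the 9 was -0.15 against -0.0025 for all genes. In pool 2 the median was -0.30 against -0.011, and S100a8 and S100a9 were at least 2-fold lower, as 1.63% of all genes were. WT 2 stood 4.52-fold above STAP-2-/- 2 for S100a8 and 4.99-fold for S100a9, while WT 1 and STAP-2-/- 1 differed by 0.15 and 0.37 on the log2 scale, in opposite directions. Il1r2 was 1.90-fold and Gpr84 1.68-fold higher in WT 2 than in STAP-2-/- 2, and for Fpr1 and Fpr2 the ratio was 1.18- and 1.23-fold. Clec4d differed by -0.13 (log2). Each of these compares 1 array with 1 array and has no replicate. STAP-2-/- was the lower genotype in both pools for 8 of the 9 genes, S100a9 being the exception, as it was for 29.1% of all genes. The comparisons within pools use the same 4 arrays as the comparisons between pools, so they are not separate evidence.

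**Figure D3:**
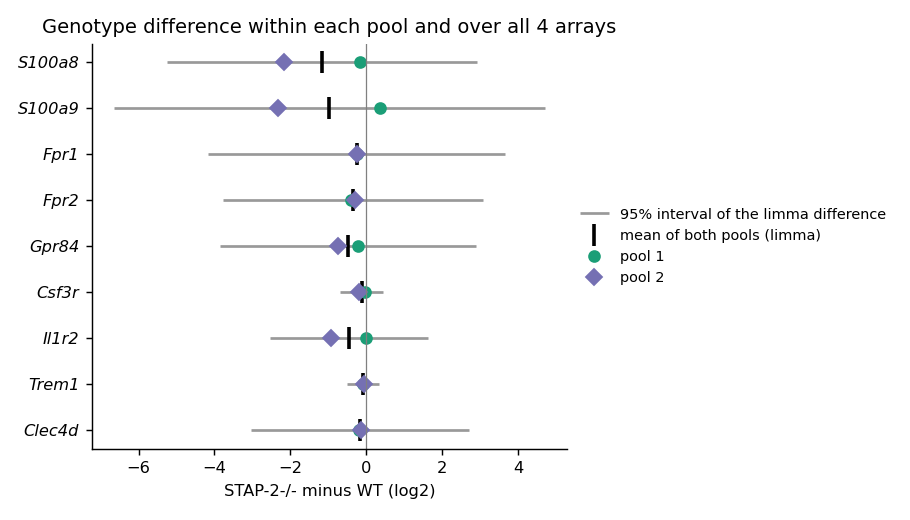
STAP-2-/- minus WT (log2) for the 9 genes tested, in pool 1 (circles), in pool 2 (diamonds) and over all 4 arrays by limma (bars, with the 95% interval as a grey line). Every interval spans 0, and S100a8 and S100a9 show the widest gap between the pools.

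The genotype differences turned with the array left out. Without an array, a single pool of its genotype is set against both pools of the other, so the pool difference enters the value. The design thus ties these values to the difference between pools, and they are no separate test of stability. The median over the 9 genes, -0.35 with all arrays, was -1.52 without WT 1, 0.82 without WT 2, 0.23 without STAP-2-/- 1 and -1.51 without STAP-2-/- 2. The median difference between pools, 2.34 over both genotypes, ran from 1.94 without WT 2 to 2.55 without STAP-2-/- 2, with S100a8 at 1.58 and Il1r2 at 0.90 without WT 2 in place of 2.67 and 1.37, and it was 1.52 with normexp background correction.

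Ligands of these receptors took several orders over the arrays. Of 12 ligand genes, 8 were tested and 0 passed, with a median difference between pools of 0.66 in WT and 0.11 in STAP-2-/-. Saa3, a serum amyloid A gene whose family binds Fpr2, was at -1.77 in WT 1, 1.48 in WT 2, -1.82 in STAP-2-/- 1 and 0.17 in STAP-2-/- 2, with pool ratios of 9.57-fold and 3.96-fold. Il1b, which Il1r2 captures, was at -1.96 in WT 1, 0.028 in WT 2, -2.33 in STAP-2-/- 1 and -1.09 in STAP-2-/- 2. Both had the order of S100a8 over the arrays. Of the 8 ligands tested, they were the 2 at least 2-fold higher in pool 2 with no overlap.

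The Cxcr2 ligands Cxcl1 and Cxcl5 took other orders. Cxcl1 was at -5.54 in WT 1, -2.38 in WT 2, -5.29 in STAP-2-/- 1 and -6.07 in STAP-2-/- 2, so WT 2 alone was high. Cxcl5 was at -2.00 in WT 1, -0.80 in WT 2, -2.92 in STAP-2-/- 1 and -3.86 in STAP-2-/- 2. Both WT arrays were above both STAP-2-/- arrays for Cxcl5, with a difference of -1.99 (SE 0.56, limma adjusted p = 1.0).

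Cxcl2, Cxcl3 and Il1a were well above background on WT 2 alone and were therefore not tested. By the levels measured, which are not well above background elsewhere, each had the order of S100a8 over the arrays. For Cxcl2, WT 2 was at least 2.14-fold above WT 1, an approximate bound. By the levels measured, WT 2 was 2.73-fold above STAP-2-/- 2, which was not well above background. Ppbp, a platelet chemokine, was at -5.49 in WT 1, -5.86 in WT 2, -5.89 in STAP-2-/- 1 and -5.09 in STAP-2-/- 2, highest where Cxcl1 and Cxcl5 were lowest. Csf3, the ligand of Csf3r, was not well above background on any array. The formyl peptide receptor ligands Anxa1 and Camp were lower in both STAP-2-/- arrays than in both WT arrays, by 0.48 (SE 0.23) and 0.51 (SE 0.15), without passing the adjusted test. Each is given by the brighter of 2 probes. With Cxcl5 they were the 3 of 8 ligands tested that were lower in STAP-2-/- with no overlap, as 13.3% of all genes were.

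**Figure D4:**
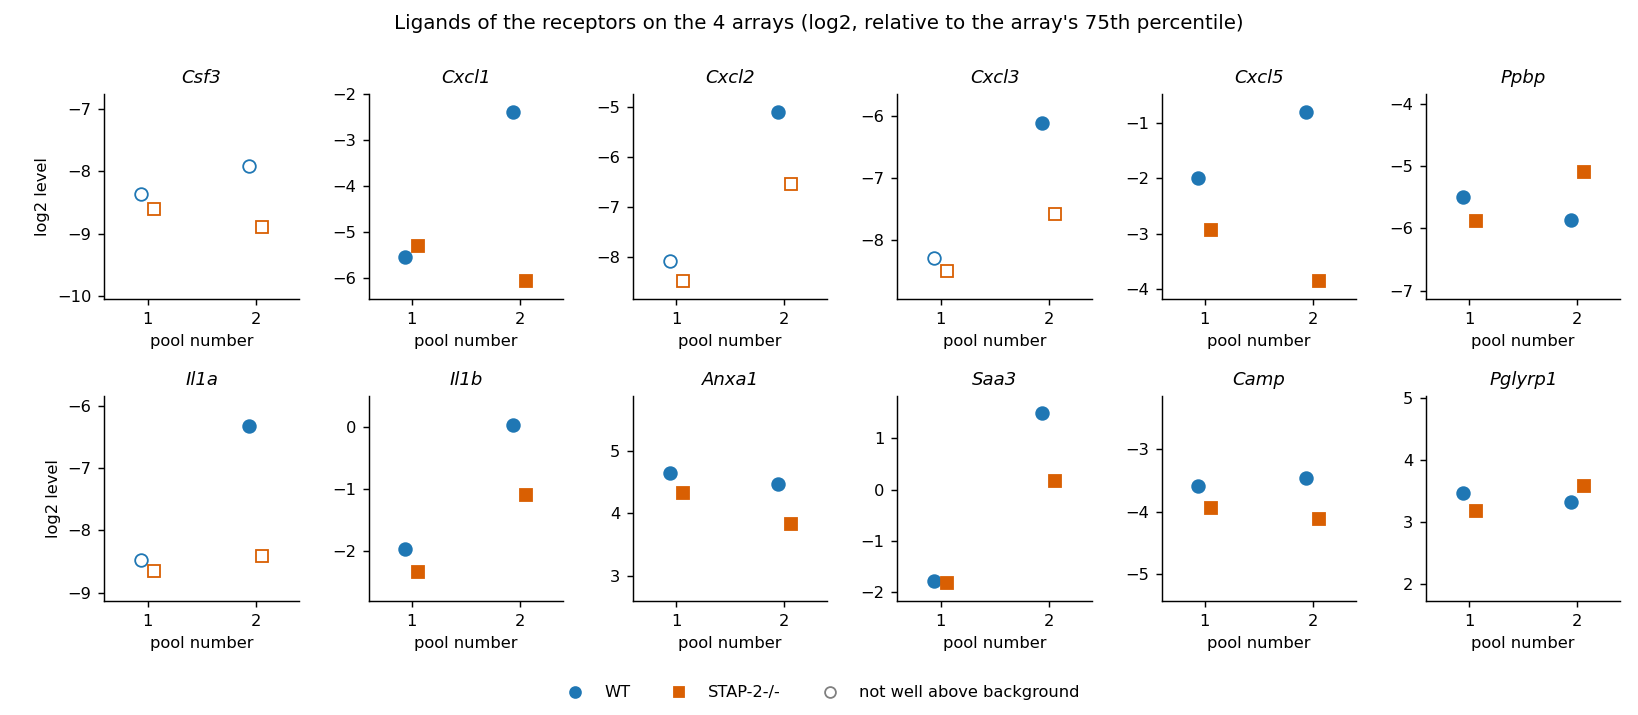
Level of the 12 ligand genes on every array (log2 relative to the array's 75th percentile, vertical axis, own range per panel) by pool number, with WT as circles, STAP-2-/- as squares and open symbols where a probe was not well above background. Saa3 and Il1b are higher at pool 2 in both genotypes, Cxcl1 is high on WT 2 alone, and Cxcl5 lies higher on both WT arrays.

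The label of the list was set against other genes of neutrophils. Of 32 such genes, Ly6g, the usual surface marker, had no named probe, and 7 (Prtn3, Ctsg, Ngp, Mmp8, Trem3, Clec5a and Itgb2l) were not well above background on any array. Mpo, the myeloperoxidase of neutrophil granules, was at -6.20 in WT 1, -5.26 in WT 2, -6.25 in STAP-2-/- 1 and -6.22 in STAP-2-/- 2, above background on 3 arrays. Elane, neutrophil elastase, was lower in pool 2, at -1.18 in WT 1, -1.67 in WT 2, -1.13 in STAP-2-/- 1 and -1.30 in STAP-2-/- 2.

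Over the 24 tested of these neutrophil genes the median difference between pools was 0.52 in WT and 0.24 in STAP-2-/-, and 0 passed the genotype test. By the mean of the genotypes, 2 of 24 were at least 2-fold higher in pool 2 with no overlap. They were Retnlg, a resistin-like gene of neutrophils (1.94 and 1.18), and Fcgr4, an Fc receptor of neutrophils and monocytes (0.54 and 1.97). Itgam, Cd300lf and Slfn4 were not among them, with Itgam differing by -0.26 in both genotypes. Itgam and Cd300lf had 3 probes each, of which only the brightest is given. Of the 24, 11 were higher in pool 2 with no overlap and 3 lower, where all genes gave 26.4% and 36.0%. The number of neutrophils in the tissue was not measured.

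Markers of other cells also differed between the pools. Their part in the results on the 10 genes was not tested. The 10 of 13 macrophage and monocyte markers tested had median differences of 0.068 in WT and 0.41 in STAP-2-/-, and their summed relative signal (each probe's signal over the array's 75th percentile) was 14.1 and 14.8 in WT and 14.5 and 16.6 in STAP-2-/- for pools 1 and 2. Csf1r differed by 0.028 and -0.079 and C1qa by 0.050 and 0.43. Ccr2, a monocyte receptor, was the 1 gene 2-fold higher in pool 2 by the mean of the genotypes (0.76 and 1.45). Of 6 eosinophil markers 4 were tested, with medians of 0.59 and 0.45 and summed signals of 0.34 and 0.47 in WT and 0.29 and 0.42 in STAP-2-/-, while the defining granule genes Epx and Prg3 were not well above background.

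T cell markers, 6 of 7 tested, had medians of 0.45 in WT and 1.32 in STAP-2-/-, with a summed signal from 2.46 to 2.65 in WT and from 2.76 to 4.23 in STAP-2-/-. Of the 6, 2 (Cd3d and Cd3g) were at least 2-fold higher in pool 2 with no overlap by the mean of the genotypes. All genes gave 2.15%. Cd3d differed by 0.61 in WT and 1.67 in STAP-2-/-, and Cd3g by 0.61 and 1.81 (log2). B cell markers, 5 of 5 tested, had medians of 1.37 and -0.86, with summed signals of 0.54 and 1.44 in WT and 0.97 and 0.43 in STAP-2-/-, so they ran in opposite directions in the genotypes. Mast cell markers, 5 of 6 tested, had medians of 0.13 and 0.34.

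The 8 colon epithelium markers went both ways, with medians of -0.18 in WT and -0.064 in STAP-2-/-. With no overlap, 2 were higher in pool 2 and 4 lower, where all genes gave 26.4% and 36.0%. Slc26a3, the chloride exchanger of surface colonocytes, differed by -0.51 and -1.74 and the adhesion gene Epcam by 0.30 and 0.70. Of the keratins, Krt8 differed by -0.57 in both genotypes, Krt18 by -0.051 and -0.0068, and Krt20 by -0.29 and 0.11. The 5 smooth muscle markers had medians of 0.041 and 0.11. Stratified squamous epithelium, which carries S100a8 and S100a9 of its own at the anal margin, was checked with 13 markers. Of these 6 were tested, with medians of -0.31 and -0.32, and their summed signal was lower in pool 2 (4.41 in WT and 4.63 in STAP-2-/-) than in pool 1 (5.74 and 5.97). Krt1, Krt4, Dsg3, Ivl, Sprr1b and Sprr3 were not well above background on any array. Krt6a was well above background in pool 2 alone, opposite to the sum of the tested markers. Its pool 2 was 1.41-fold above pool 1 in WT by the levels measured, and at least 1.56-fold in STAP-2-/- as an approximate bound.

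**Figure D5:**
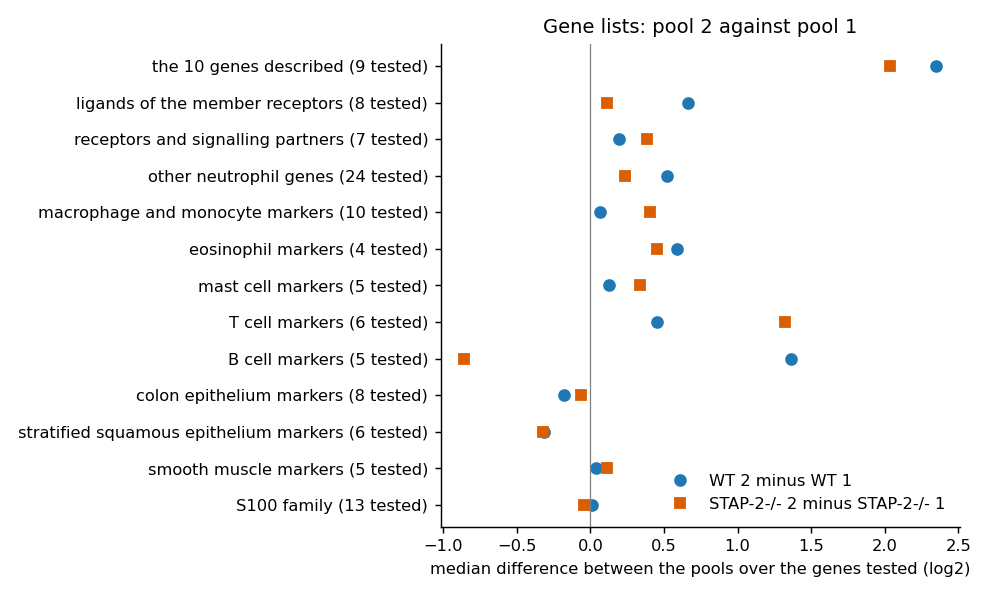
Median difference of pool 2 minus pool 1 (log2, horizontal axis) over the tested genes of each list, in WT (circles) and STAP-2-/- (squares). The list with the 10 genes, which was chosen with these values known, lies at 2.35 and 2.04, and the other lists lie between -0.86 and 1.37.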

How the data were processed

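Expression was measured on 4 Agilent 1-colour arrays of 44397 spots, 1 for each pool of 3 mice. The scanner files, as deposited, give for each spot a processed signal intensity, the median intensity of spot and background, and flags, per the file headers. They come from Agilent Feature Extraction 10.7.1.1 according to the submitters' processing notes. A value table, also deposited, gives a ratio: the processed signal over 1 constant per array within 1% for 99.9% to 100% of the probes compared, on a linear scale and not centred by gene (column medians 0.091, 0.087, 0.091 and 0.085). It served as an alternative.

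Control spots were left out, outlier-flagged spots (129 to 190 per array) were dropped, and repeat spots of the same probe were averaged. No spot was saturated. The processed signal was put on the log2 scale minus the array's 75th percentile. Of 39429 probes, 27427 were named through unversioned accessions matched to RefSeq (assembly GRCm38.p6). Testing required a gene's brightest probe to be well above background on 2 arrays of the same genotype. Genotypes were compared by limma 3.58.1 in R 4.3.3, Benjamini-Hochberg adjusted at 0.05, with no covariate, after tests on simulated data. For a bound, a gene not well above background on an array was set there to the level of the dimmest probe counted. Where its own level was higher, that level was used. Some probes not counted lay above the dimmest one counted, so the bounds are approximate.

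All 10 genes are named. The rule allowed naming any gene of the ligand and of the receptor and partner lists, the 3 with the highest mean level in each other list, Ly6g, Mpo, Elane and the 6 nearest profiles; not all of these are printed, and any other gene named was chosen after its values were seen. Genes and lists were chosen with earlier results of these data known. The number of arrays limits the precision, and depth does not apply. All arrays lay on 1 slide. Alternatives were other scalings, normexp, other filters, probe averages, a trend, the replicate block and leaving out each array. Tables were read in Python 3.11.15 with pandas 2.3.3 and numpy 2.4.6, and plots drawn with matplotlib 3.10.9.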

Additional observations from a re-analysis of the deposited data

Results flagged for a closer look

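The genotype difference (STAP-2-/- minus WT, log2) had opposite signs in the pools for S100a9 and for 6 ligand or partner genes, and this difference between the pools was not tested, since each value compares 1 array with 1 array. S100a9 differed by -2.32 in pool 2 and by 0.37 in pool 1. Among the ligand genes, Cxcl1 differed by -3.69 and 0.25, Ppbp by 0.77 and -0.39 and Pglyrp1 by 0.27 and -0.28. Among signalling partners, Tyrobp differed by 0.14 and -0.034, Fcer1g by 0.54 and -0.075 and Il1rn by 0.028 and -0.32, the pool 2 value first in each pair. The values of Tyrobp, Pglyrp1 and Il1rn lay within the SD of all genes in each pool (0.38 in pool 1 and 0.41 in pool 2).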

How the results depend on the processing

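No gene other than Stap2 passed the genotype threshold in any alternative: with normexp background correction 1 gene was lower past the threshold, Stap2 itself (adjusted p 0.00438), against 0 with all other settings, and 0 were higher. With normexp the median of the 9 genes was -0.18 for genotype and 1.52 for the pools, against -0.35 and 2.34. The difference of Gpr84 between pools was 1.25. This setting adds an offset of 50 signal units before the log2 scale, and an added constant narrows the log2 differences of dim probes. The processed signals of Gpr84 in pool 1 were 31.6 in WT and 29.3 in STAP-2-/-. How much of the change came from the offset was not tested. All settings other than leaving out an array, normexp among them, kept the sign of the genotype differences of the 9 genes. With the replicate number as a block (replicate block), 0 genes passed. In that limma fit 399 genes higher and 641 lower in STAP-2-/- had an unadjusted p under 0.05, against 325 in all without it. The limma adjusted p of the 9 ran from 0.700 to 0.846. The 95% intervals of Fpr2 (-0.66 to -0.038, limma unadjusted p 0.0372), Fpr1 (-0.55 to 0.049) and Clec4d (-0.47 to 0.14) did not reach 2-fold. Nor did those of Csf3r and Trem1. The intervals of S100a8 (-3.00 to 0.67), S100a9 (-3.40 to 1.45), Il1r2 (-1.34 to 0.41) and Gpr84 (-1.05 to 0.093) reached beyond 2-fold. Deviations of equally numbered arrays correlated by 0.631, but with 2 pairs the numbers are not taken as a pairing.

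Leaving out an array, the genotype median ran from -1.52 to 0.82 and the median between pools from 1.94 to 2.55, the latter a setting chosen after seeing the data. Genotype differences ran from -3.00 to 0.68 for S100a8, -3.52 to 1.58 for S100a9, -1.62 to 1.12 for Fpr1, -1.57 to 0.88 for Fpr2, -1.79 to 0.83 for Gpr84, -0.31 to 0.075 for Csf3r, -1.38 to 0.45 for Il1r2, -0.17 to 0.0076 for Trem1 and -1.18 to 0.85 for Clec4d. With 1 array left in a genotype, it is assumed to vary like the others. The difference between pools enters these genotype values, since a single pool then faces both pools of the other genotype. Signal near background limits the pool 1 level of Gpr84, and Cxcr2 could not be compared.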

Other observations

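Besides Timp1 and Il1b, 4 genes lay nearest to the mean profile of the list over the arrays. Slc13a3, a dicarboxylate transporter, was at -4.21 in WT 1, -1.68 in WT 2, -4.14 in STAP-2-/- 1 and -2.37 in STAP-2-/- 2. Tff2, a trefoil peptide of mucus, was at -3.45, -1.09, -3.19 and -1.65 in the same order. Ereg, a growth factor of the epidermal growth factor family, was at -1.52, 0.24, -1.77 and -0.36, and the cytokine gene Il11 at -4.72, -2.16, -4.90 and -3.05. These genes were picked for their likeness to the list, so their values are a description with no test.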
